A study of Physcomitrium patens with 5 samples.

Results

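This report describes 98 genes of the moss Physcomitrium patens that lay at or near a differentially methylated region and that carried neither an orthology definition nor a gene ontology entry. They were picked by an annotation rule from the 225 genes in the authors' deposited table of differential methylation. The rule used no methylation value, but the table itself lists only genes with a differentially methylated region. The set was also chosen with earlier results of these data known, so it was not blind to the values. Bisulfite sequencing had been used to read DNA methylation in gametophores (leafy moss shoots) grown on BCD medium. The groups were 1 library each of hydrated, moderately dehydrated (called mild in the treatment text), severely dehydrated, partially rehydrated and fully rehydrated tissue, and each of the other states was compared with the same hydrated library. The labels give no strain, age, drying time or rewetting time, and no group had a replicate, so the spread between plants is unknown and no state could be tested against another.

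In plants, methyl groups sit on cytosines in the CG, CHG and CHH contexts, where H is any base but G, and separate families of methyltransferases (MET1, CMT and DRM) keep and set them. In Physcomitrium patens most methylation lies on transposable elements and other repeats, while the bodies of most expressed genes carry little. Orthology and ontology entries are given to a predicted gene by its likeness to known proteins. A prediction without such an entry may be a gene of the moss lineage, a fast-evolving gene, a fragment or a wrong gene model, and the table does not tell these apart. No function is therefore given here for any of the 98. A lookup of the 225 identifiers by name in a reference gene list found 0, annotated genes included. It compared names only and found no annotated gene either, so it says nothing about whether a gene model is right.

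Each entry in the table names an element of the gene (its body or a flank of 2 kb on either side), the ends of the region, a log2 ratio of methylation levels and a direction. The table does not state which library is the numerator. A positive ratio is read as more methylation than in hydrated tissue, and every direction given here depends on this reading. It rests on 2 stretches at annotated genes, each listed in 2 comparisons, and is explained with the processing. Every listed ratio was at least 1 in size on the log2 scale, a 2-fold difference, so the list holds only regions past that size. The table lists no levels. Where a single pair of whole-percent levels could give the ratio, both are stated here as recovered levels. They were computed from the ratio, assuming that a fraction of 0.001, not a percentage, stood in for a level of 0. With both levels above 0, a single pair requires that the larger level be above 50%, since otherwise the doubled pair gives the same ratio. Recovered levels therefore describe such regions and not the states. Depth is unknown, and no limit could be set on a level recovered as 0. Gene identifiers and scaffold positions are those of the table, and no source used here gives their genome build.

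The 98 genes had 116 entries in 108 distinct regions on 83 scaffolds, against 116 regions linked to annotated genes only. Of the genes, 87 had a single entry and 11 had more, 94 were listed in 1 comparison and 4 in 2. By direction, 49 genes had higher regions alone, 46 had lower regions alone and 3 had both. The regions were 202 to 772 bases wide, with a median of 329, and the median over annotated regions was 303. Over all comparisons 60 regions were higher and 48 lower, or 55.6% higher (exact Clopper-Pearson 95% interval 45.7 to 65.1). In size, the log2 ratios had a median of 1.32 (order-statistic 95% interval 1.18 to 1.51) at unannotated genes and 1.61 (1.42 to 1.89) at annotated ones, and the intervals overlap. These intervals cover counting error over listed regions only, and regions are not replicates.

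**Figure D1:**
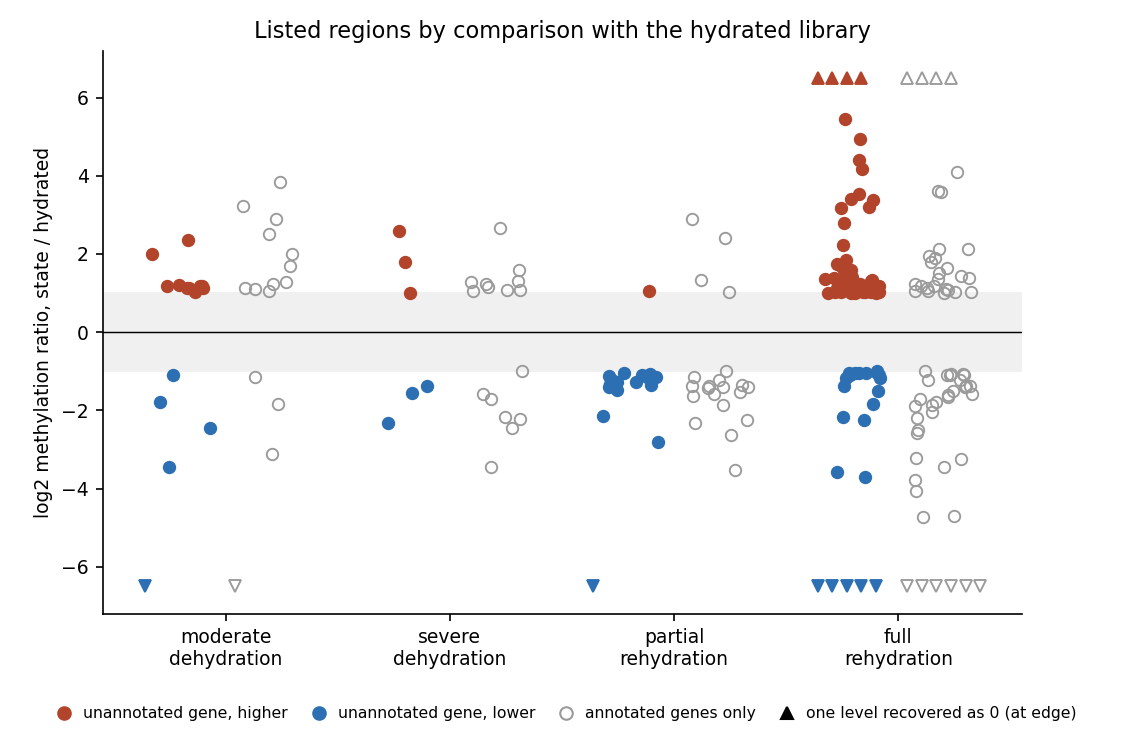
Log2 methylation ratio of each listed region (vertical axis, state over hydrated) in the 4 comparisons (horizontal axis), where filled points are regions linked to an unannotated gene, open points are regions linked to annotated genes only, and triangles are regions with a level recovered as 0, placed at the edge of the axis. Sideways scatter has no meaning and the grey band holds sizes under 1; in partial rehydration 18 of the 19 filled symbols lie below 0, and in full rehydration 46 of 68 lie above it.

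In moderate dehydration, 16 unannotated genes were listed with 15 regions, and nearly all of their entries lay in upstream flanks. Higher regions were more numerous, but the larger ratios were mostly lower ones. Of the 15 regions, 10 were higher, or 66.7% (95% interval 38.4 to 88.2), near the 70% over all listed genes of this comparison. Among the 6 regions with a log2 ratio of at least 1.5 in size, 2 were higher and 4 lower, so the direction of the split turned with size. The 10 higher regions had a median size of 1.17 and the 5 lower ones of 2.46. By element, 13 of 16 entries were upstream (81.2%, 95% interval 54.4 to 96.0), 1 was in a body and 2 were downstream, while annotated genes had 11 of 23 entries upstream (47.8%, 26.8 to 69.4). The intervals overlap, and this difference was not tested.

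The lowest ratio with both levels above 0 in moderate dehydration was -3.46 in the authors' deposited table. It lay on scaffold 208 (43335 to 43553) in a region upstream of both Pp1s208_16V6 and an annotated neighbour. Upstream of Pp1s86_81V6, the authors' deposited table gave -2.46. The region upstream of both Pp1s128_62V6 and Pp1s128_63V6, on scaffold 128 from 480598 to 481033, had recovered levels of 52% in hydrated and 15% in moderately dehydrated tissue. These lower regions thus include a pair of unannotated neighbours with a single region between them. Upstream of Pp1s27_157V6 the recovered levels were 77% and 36%. Downstream of Pp1s358_36V6 the recovered levels were 12% in hydrated tissue and 0 in moderate dehydration, from a ratio of -6.91 in the authors' deposited table, and no fold is given.

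On the higher side of moderate dehydration, the largest value in the authors' deposited table was 2.36, and it lay upstream of Pp1s33_45V6 on scaffold 33 (306367 to 306576). The 2 pairs of levels that could give it were 8% and 41%, or 16% and 82%. Upstream of Pp1s67_96V6 the authors' deposited table gave 2, and many pairs of levels could give that. The other 8 higher regions were close to the smallest size listed, between 1.03 and 1.21. Among them were Pp1s338_27V6, with recovered levels of 22% and 51%, and Pp1s164_125V6, with 25% and 51%, both upstream. The remaining ones included the body of Pp1s80_107V6 at 1.18 in the authors' deposited table.

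In severe dehydration, 9 unannotated genes were listed with 6 regions, the shortest list, as it also was over all genes, with 22 regions. Of their 9 entries, 0 were in gene bodies (95% interval 0 to 33.6%), while annotated genes had 4 of 23 (17.4%, 4.95 to 38.8). The intervals overlap, and this difference was not tested. Of the 6 regions 3 were higher and 3 lower, or 50% higher (95% interval 11.8 to 88.2), near the 54.5% over all listed genes of this comparison. Upstream of Pp1s17_99V6, between 471919 and 472157 of scaffold 17, the authors' deposited table gave the highest ratio, 2.58. Downstream of Pp1s149_129V6 it was 1.81 in the authors' deposited table. The neighbours Pp1s284_35V6 and Pp1s284_36V6 shared an upstream region of 625 bases which stood at 1 in the authors' deposited table, the smallest size that was listed. Of these 3 higher regions, all were in flanks and none was linked to an annotated gene.

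The lower regions of severe dehydration were each linked to more than 1 gene. On scaffold 101 (205492 to 205706), a region upstream of Pp1s101_34V6 and downstream of Pp1s101_35V6 stood at -2.32 in the authors' deposited table. Downstream of Pp1s126_181V6 59% was recovered for hydrated and 20% for severely dehydrated tissue. On scaffold 91 from 1053489 to 1053777, a region downstream of Pp1s91_171V6 and upstream of Pp1s91_172V6 stood at -1.38 in the authors' deposited table. The median size over the 6 regions was 1.68 (95% interval 1 to 2.58, the whole range), and the interval shows how little 6 regions can tell.

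In partial rehydration, 20 unannotated genes were listed with 19 regions, and 18 of these had less methylation than hydrated tissue. The share lower was 94.7% (95% interval 74.0 to 99.9), against 87.5% over all listed genes of this comparison and 81% (58.1 to 94.6) over regions of annotated genes only. The share thus lay near that of the whole list. Lower entries prevailed in each element, with 7 of 7 upstream entries, 5 of 5 body entries and 8 of 9 downstream entries lower. With overlapping entries of a gene merged, the body count was 4 of 4. The changes were modest in ratio, with a median size of 1.23 (95% interval 1.11 to 1.40) and 16 of 19 regions below 1.5.

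Downstream of Pp1s358_21V6, between 147115 and 147353 of scaffold 358, the authors' deposited table gave -2.81, the lowest ratio of partial rehydration with both levels above 0. Upstream of Pp1s220_2V6 recovered levels were 57% in hydrated and 13% in partially rehydrated tissue. Both regions lay in flanks and were linked to no other gene. Downstream of Pp1s84_117V6 the levels were 53% and 19%, and downstream of Pp1s133_132V6 they were either 37% and 14% or 74% and 28%. Upstream of Pp1s208_62V6 they were 71% and 28%. The body of Pp1s110_92V6, on scaffold 110 from 620907 to 621218, had recovered levels of 39% in hydrated tissue and 0 in partial rehydration, from a ratio of -8.61 in the authors' deposited table. Downstream of Pp1s74_70V6 was the single higher region, at 1.05 in the authors' deposited table, from 13% to 27%, 26% to 54% or 39% to 81%.

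Recovered levels were available for 8 of the 18 lower regions of partial rehydration with both levels above 0, all with a hydrated level above 50% by the way levels are recovered. In these 8 regions, hydrated levels ran from 52% to 96% with a median of 66%, and the levels after partial rehydration from 13% to 43% with a median of 28.5%. The gap was 27 to 53 points with a median of 43.5. Upstream of Pp1s23_230V6 the levels were 96% and 43%, and downstream of Pp1s115_194V6 they were 86% and 39%. These 8 do not stand for the other 10 lower regions.

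**Figure D2:**
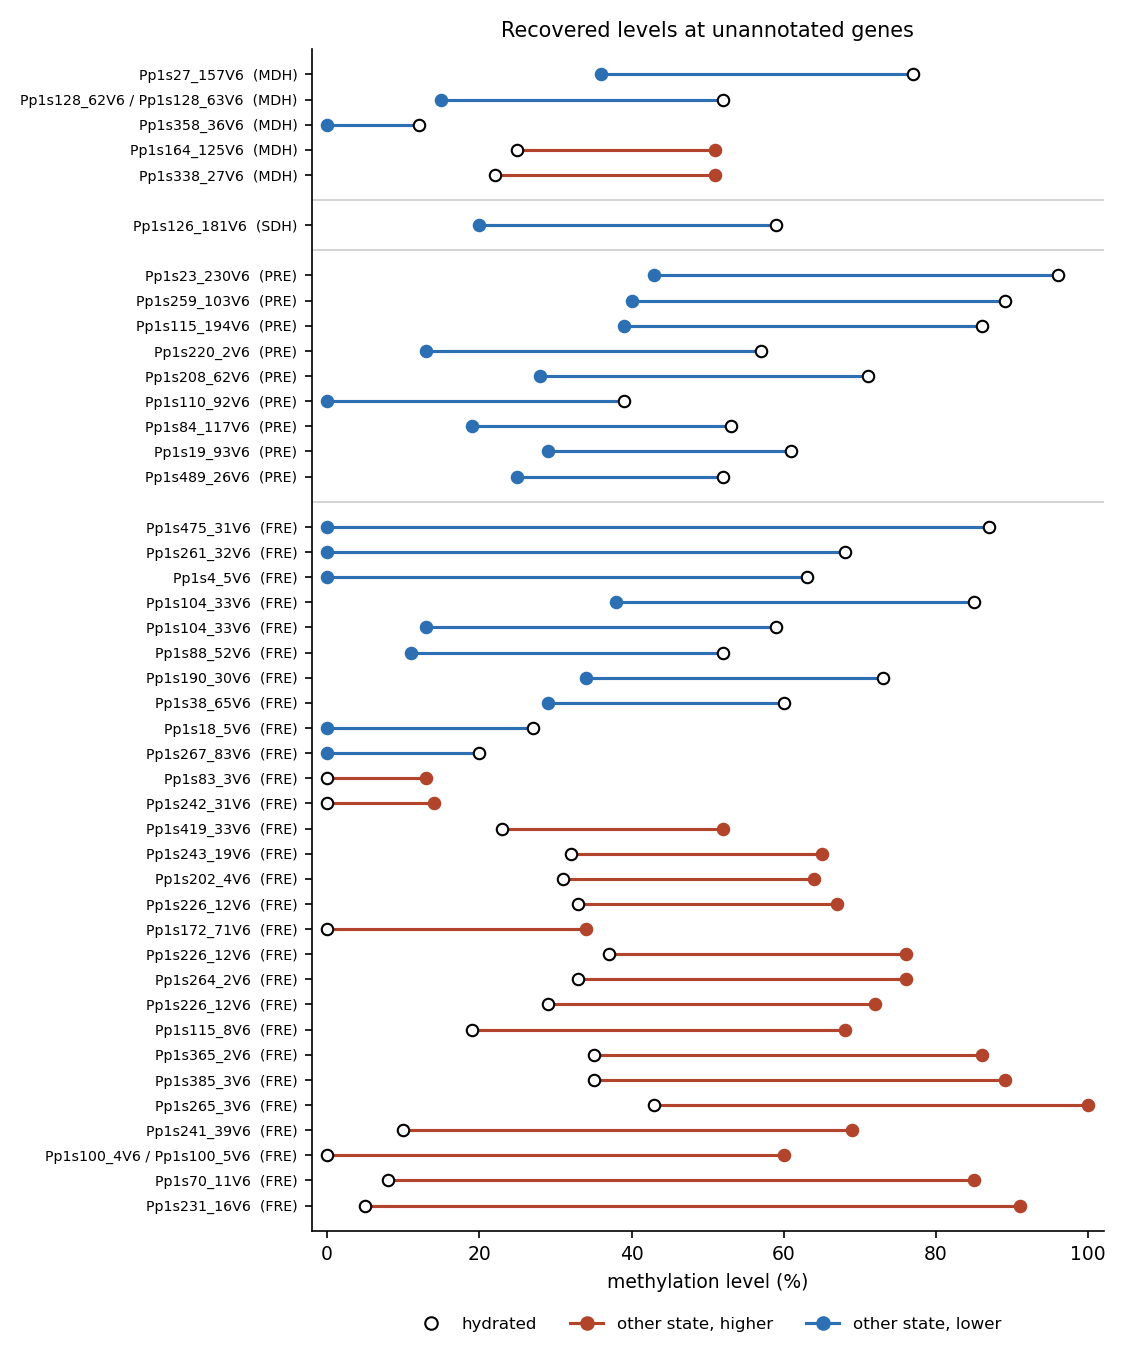
Methylation level in percent (horizontal axis) in the hydrated library (open circles) and the compared state (filled circles) for the 43 regions at unannotated genes with a single possible pair of levels, 1 region per line (vertical axis, with MDH for moderate and SDH for severe dehydration, PRE for partial and FRE for full rehydration). Every region of partial rehydration shown runs to the left, from hydrated levels of 39% to 96%, while full rehydration has regions in both directions, including Pp1s231_16V6 from 5% to 91%.

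In full rehydration, 57 unannotated genes were listed with 68 regions, more than in the other 3 comparisons together, and higher regions were in the majority. The length of this list is no trait of these genes. Full rehydration held 132 of the 224 regions of all genes and 64 of the 116 of annotated genes only. Of the 57 unannotated genes, 37 were higher only, 19 lower only and 1 was in both directions. Of the regions 46 were higher and 22 lower, or 67.6% higher (95% interval 55.2 to 78.5), against 56.1% over all listed genes of this comparison and 43.8% (31.4 to 56.7) over regions of annotated genes only. With overlapping regions merged into single loci the shares were 64.4% (38 of 59, interval 50.9 to 76.4) and 42.4% (25 of 59, interval 29.6 to 55.9). Without regions that also touch an annotated gene, the merged share was 64.7% (33 of 51, interval 50.1 to 77.6). The gap between both classes of genes was therefore present with and without the overlapping regions. The intervals of both classes overlap either way, and the gap was not tested here.

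The excess of higher regions in full rehydration was widest in the upstream flanks. Upstream entries of unannotated genes were 19 higher and 4 lower, and those of annotated genes, with overlapping entries merged, 14 higher and 20 lower. As distinct upstream regions, 17 of 21 were higher at unannotated genes (81%, 95% interval 58.1 to 94.6) and 14 of 34 at annotated genes (41.2%, 24.6 to 59.3), where a region upstream of genes of both classes counts in each. Downstream entries, merged in the same way, were 16 higher and 13 lower against 15 and 16. Body entries were 12 higher and 5 lower at unannotated genes as listed, but 6 and 5 once overlapping entries of a gene were merged, and 6 and 2 at annotated genes. The intervals for distinct upstream regions overlap. The split by element was read after the data were seen and has no test.

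**Figure D3:**
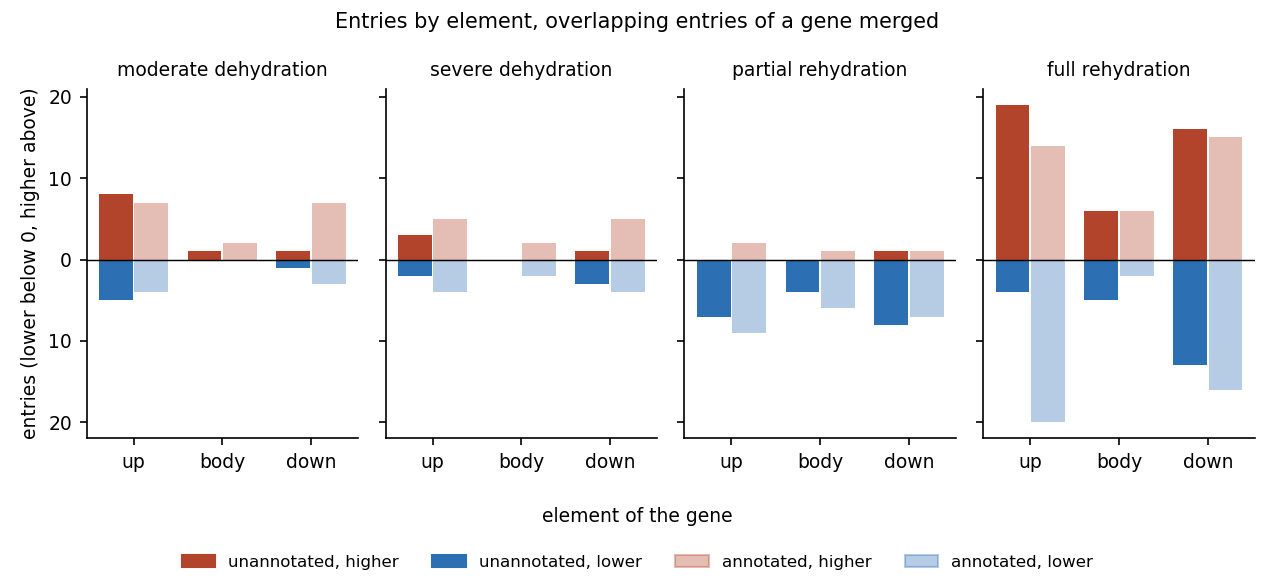
Number of entries (vertical axis, higher above 0 and lower below) by element of the gene (horizontal axis: upstream flank, body, downstream flank) in each comparison, for unannotated genes in full colour and annotated genes in pale colour, with overlapping entries of 1 gene merged. In full rehydration the upstream bars are 19 above and 4 below 0 for unannotated genes and 14 above and 20 below for annotated ones.

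Among regions of full rehydration with both levels above 0, the highest ratios were upstream of Pp1s73_31V6 and Pp1s521_12V6. Upstream of Pp1s73_31V6, between 132943 and 133157 of scaffold 73, the authors' deposited table gave 5.46, for which the computed pairs are 1% to 44% or 2% to 88%. Upstream of Pp1s521_12V6 the authors' deposited table gave 4.95, and the computed pairs of levels are 1% to 31%, 2% to 62% or 3% to 93%. Ratios of this size can only start from a low hydrated level, since no level exceeds 100%. Downstream of Pp1s231_16V6, on scaffold 231 from 101365 to 101652, recovered levels were 5% in hydrated and 91% in fully rehydrated tissue, the widest gap among the recovered levels that were above 0, at 86 points. Downstream of Pp1s106_35V6 the authors' deposited table gave 4.39, and in the body of Pp1s98_38V6 3.52. Downstream of Pp1s70_11V6 the levels were 8% and 85%, and downstream of Pp1s241_39V6 10% and 69%. In all, 9 higher regions and 2 lower ones with both levels above 0 were past 3 in size. With levels recovered as 0 included, 20 of the 68 regions were past 3, 9 of them with such a level. Regions of annotated genes only had 20 of 64 past 3, 10 of them with such a level, so large ratios were common to both classes.

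Smaller ratios were more common, with 26 of the 46 higher regions below 1.5 in size. In the 14 higher regions of full rehydration where both levels were recovered and above 0, hydrated levels ran from 5% to 43% with a median of 31.5%, and levels after full rehydration from 52% to 100% with a median of 74%. Upstream of Pp1s265_3V6, on scaffold 265 from 19977 to 20279, methylation went from 43% to 100%. Upstream of Pp1s115_8V6 the levels were 19% and 68%, and downstream of Pp1s385_3V6 they were 35% and 89%. The levels after full rehydration in these 14 regions are above 50% by the way levels are recovered. Among the 14 are 3 overlapping regions in the body of Pp1s226_12V6, so they are not 14 separate measurements.

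On the lower side of full rehydration, the lowest values were downstream of Pp1s81_10V6, at -3.70, and of Pp1s301_8V6, at -3.58, in the authors' deposited table. Upstream of Pp1s88_52V6 recovered levels were 52% in hydrated and 11% in fully rehydrated tissue. The body of Pp1s104_33V6 went from 59% to 13%. Each of these lower regions was at a gene whose other entries, if any, were lower too. Downstream of Pp1s309_9V6 the authors' deposited table gave -1.85. In the 5 lower regions with both levels recovered and above 0, hydrated levels were 52% to 85% and levels after full rehydration 11% to 38%. The body region of Pp1s104_33V6 and an overlapping region downstream of that gene are both among these 5.

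A level of 0 was recovered, from log2 ratios of 6.91 or more in size, for 11 of the 108 regions at unannotated genes, or 10.2% (95% interval 5.2 to 17.5), and for 11 of the 116 regions at annotated genes only, or 9.48% (4.83 to 16.3). Both classes of genes thus had such regions at a like share. Full rehydration held 9 of the 11 at unannotated genes, and 68 of all their 108 regions. It also held 10 of the 11 at annotated genes only, so this was common to both classes. Of the 9 at unannotated genes, the hydrated library was at 0 in 4. Upstream of both Pp1s100_4V6 and Pp1s100_5V6, on scaffold 100 from 25595 to 25932, the level after full rehydration was 60%. It was 34% upstream of Pp1s172_71V6, 14% in a region downstream of Pp1s242_31V6 and 13% upstream of Pp1s83_3V6. These were all flank regions.

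Full rehydration was the library at 0 in the other 5. Downstream of Pp1s475_31V6, on scaffold 475 from 148743 to 148982, the hydrated level was 87%. It was 68% downstream of Pp1s261_32V6 and 63% upstream of Pp1s4_5V6. In gene bodies it was 27% at Pp1s18_5V6 and 20% at Pp1s267_83V6. High and low hydrated levels were thus both found among regions recovered as 0 after rewetting. The depth of these regions is unknown.

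Several regions at 1 gene were found for 11 unannotated genes, 10 of them within a comparison. Of 21 pairs of regions within a gene and a comparison, 16 shared at least 1 base, and all 16 had the same sign. These pairs shared up to 704 bases read in the same libraries, so their like sign is no separate evidence. The extreme was Pp1s202_4V6, with 5 higher regions in full rehydration that together covered 842 bases on scaffold 202 from 68500 to 69341. Of these, 4 were listed in the body and 1, from 68885 to 69090, downstream, although that stretch lies inside 3 of the regions listed in the body. A region listed in the body can therefore reach into the flank. Values in the authors' deposited table were 1.58, 1.05, 1 and 1 for the body of Pp1s202_4V6 and 1.75 for its downstream region. The recovered levels of the second were 31% and 64%.

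In the body of Pp1s226_12V6, 3 overlapping higher regions covered 397 bases. Their recovered hydrated levels were 37%, 33% and 29%, and their levels after full rehydration 76%, 67% and 72%. Any 2 of these regions shared 185 to 233 bases, so their similar levels are not separate measurements. The body of Pp1s466_10V6 and the downstream flank of Pp1s23_41V6 each had a pair of overlapping higher regions in full rehydration, at 1.05 and 1.38, and at 1.18 and 1.03, in the authors' deposited table. At Pp1s104_33V6 a body region (59% and 13%) and a downstream region (85% and 38%) shared 263 bases and were both lower. Counting such regions separately adds to the higher side of full rehydration, since 38 higher loci were listed as 46 regions and 21 lower loci as 22.

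**Figure D4:**
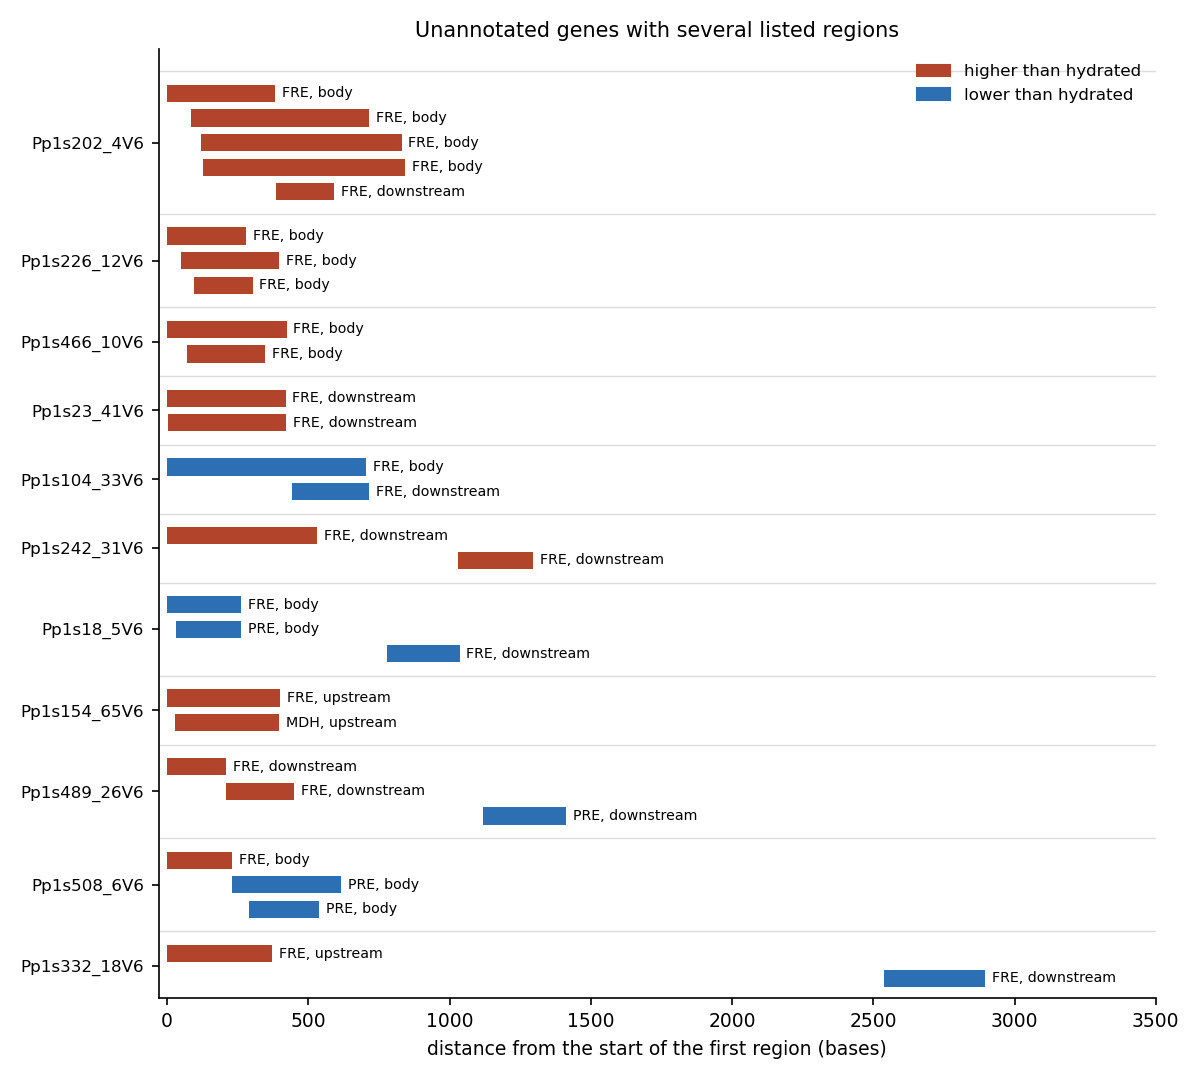
Position of each listed region in bases from the start of the first region (horizontal axis) for the 11 unannotated genes with several entries (vertical axis), coloured by direction and marked with the comparison and element, where MDH is moderate dehydration, PRE partial and FRE full rehydration. Pp1s202_4V6 has 5 overlapping higher regions, and at Pp1s508_6V6 a higher region of full rehydration meets lower regions of partial rehydration.

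Other genes had regions that lay apart. Downstream of Pp1s242_31V6, a region from 0 to 14% and another at 1.70 in the authors' deposited table were 498 bases apart and both higher. At Pp1s332_18V6 the upstream region stood at 3.17 and the downstream region at -1.38 in full rehydration in the authors' deposited table, with 2167 bases between them. It was the only one of the 57 genes of full rehydration with entries in both directions there.

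The 4 unannotated genes listed in 2 comparisons all included full rehydration. These comparisons share the hydrated library, so their values are given side by side with no measure of likeness. Upstream of Pp1s154_65V6, on scaffold 154, a region from 380646 to 381013 stood at 1.17 in moderate dehydration and one from 380618 to 381017 at 1.14 in full rehydration, in the authors' deposited table. In the body of Pp1s18_5V6, on scaffold 18, a region from 37369 to 37597 stood at -1.32 in partial rehydration in the authors' deposited table. A region of this gene with the same end, from 37337 to 37597, had recovered levels of 27% in hydrated tissue and 0 in full rehydration. A further region, 517 bases on and downstream of Pp1s18_5V6, stood at -1.04 in full rehydration in the authors' deposited table.

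For the other 2 genes the direction turned between partial and full rehydration, in different stretches of the same element. Downstream of Pp1s489_26V6, on scaffold 489, a region from 135305 to 135598 had recovered levels of 52% in hydrated and 25% in partially rehydrated tissue. In full rehydration, regions from 134185 to 134392 and from 134393 to 134633 stood at 1.04 and 1 downstream of Pp1s489_26V6 in the authors' deposited table, 671 bases or more from the former. In the body of Pp1s508_6V6, on scaffold 508, the lower regions of partial rehydration ran from 8173 to 8558 and from 8233 to 8481, at -1.26 and -1.11 in the authors' deposited table. The higher region of full rehydration in Pp1s508_6V6 ran from 7943 to 8173, at 1.04 in the authors' deposited table, and shared 1 base with the first of them. Neither gene thus had a stretch that was measured as both higher and lower over more than 1 base.

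A region was shared with another listed gene by 29 of the 98 unannotated genes (29.6%, 95% interval 20.8 to 39.7) and by 37 of the 127 annotated genes (29.1%, 21.4 to 37.9). Of the 108 regions at unannotated genes, 26 were linked to several genes (24.1%, 95% interval 16.4 to 33.3), 21 to 2 genes and 5 to 3. Of the 116 regions at annotated genes only, 12 were (10.3%, 5.46 to 17.4). A region linked to both classes counts among the 108, so these shares are not alike in kind. Of the 26 regions, 6 linked unannotated genes only, with 3 higher and 3 lower. The other 20 linked 16 unannotated genes to 17 annotated neighbours, with 8 higher and 12 lower. A shared region has a single methylation value, and which gene it belongs to cannot be told apart from the table.

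Several neighbours have orthology definitions for the reading and splicing of genes. In moderate dehydration, Pp1s208_16V6 shared its region with Pp1s208_15V6, defined as the RPB1 subunit of RNA polymerase II, which transcribes protein-coding genes, and both had it upstream. Pp1s33_45V6 had upstream what Pp1s33_44V6, for the small nuclear ribonucleoprotein D3 of the spliceosome, had downstream. Pp1s358_36V6 shared a downstream region with Pp1s358_35V6, for the RNA helicase DDX42. The largest lower and the largest higher ratio of unannotated genes in moderate dehydration were thus both in shared regions. In partial rehydration, Pp1s259_103V6 shared a downstream region, at 89% in hydrated and 40% in partially rehydrated tissue, with Pp1s259_102V6, which has ontology terms for DNA binding and regulation of gene expression.

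Other neighbours belong to energy metabolism and photosynthesis. The region upstream of Pp1s154_65V6 was also upstream of Pp1s154_66V6, for the beta subunit of the F-type ATPase, the catalytic part of ATP synthase, and downstream of Pp1s154_64V6, for a nucleobase and cation symporter. Pp1s71_60V6 shared an upstream region with Pp1s71_61V6, for PsbW, a small protein of photosystem II. Its levels were either 47% and 20% or 94% and 40% in partial rehydration. In full rehydration, Pp1s22_9V6 shared a downstream region at 1.22 in the authors' deposited table with Pp1s22_10V6, for subunit 4 of NADH dehydrogenase I. Of these regions, those by the ATPase and dehydrogenase genes were higher and the one by PsbW was lower.

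Both Pp1s18_5V6 and Pp1s508_6V6, named above for regions in 2 comparisons, have a neighbour with a disease resistance definition. They were put together after their values were seen, and no test was made. The body region of Pp1s18_5V6 was upstream of Pp1s18_7V6, defined as RPS2, and the body regions of Pp1s508_6V6 were downstream of Pp1s508_5V6, defined as RPM1. Both definitions name receptors known from Arabidopsis to detect bacterial effectors inside the cell. In partial rehydration these regions were lower. In full rehydration the region at Pp1s18_5V6 was lower and that at Pp1s508_6V6 higher.

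Kinase, ubiquitin and cell wall genes were among the remaining neighbours. A region of full rehydration downstream of Pp1s489_26V6 was also downstream of Pp1s489_24V6, defined as casein kinase 1, a protein kinase. The upstream region of Pp1s332_18V6 was downstream of Pp1s332_14V6 and Pp1s332_17V6, both with ontology terms for protein kinase activity. Pp1s282_59V6 had downstream a region that was upstream of Pp1s282_60V6, defined as MOB1, an activator of cell cycle kinases, at -1.09 in the authors' deposited table for full rehydration. In severe dehydration, the region downstream of Pp1s126_181V6 was upstream of Pp1s126_183V6, defined as the ubiquitin ligase HERC4, and that of Pp1s91_171V6 and Pp1s91_172V6 was downstream of Pp1s91_170V6, which has only an ontology term for an organelle. The body region of Pp1s80_107V6 in moderate dehydration was downstream of Pp1s80_106V6, for a galacturonosyltransferase, which builds pectin. The definitions of the RPB1, HERC4, symporter, MOB1, casein kinase 1 and RPM1 genes end in a further orthology identifier, so the identity of these neighbours is not settled.

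The 6 regions shared among unannotated genes alone were mostly between upstream flanks. Upstream of both genes lay the regions of Pp1s100_4V6 and Pp1s100_5V6, of Pp1s128_62V6 and Pp1s128_63V6, of Pp1s236_5V6 and Pp1s236_6V6, and of Pp1s284_35V6 and Pp1s284_36V6. The region of Pp1s236_5V6 and Pp1s236_6V6 stood at 1.18 in full rehydration in the authors' deposited table. A region of 629 bases on scaffold 3, from 1833159 to 1833787, lay in the body of Pp1s3_289V6 and upstream of Pp1s3_291V6 and Pp1s3_292V6, and its levels were either 49% and 22% or 98% and 44% in partial rehydration. Of all 26 shared regions at unannotated genes, 6 were upstream of exactly 2 genes and 4 downstream of exactly 2 with no other link.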

How the data were processed

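DNA methylation in 5 bisulfite libraries, 1 per state, was analysed from the table in which the authors deposited 4 comparisons, each with the hydrated library. Per the file headers, each cell holds the element, region start, region end, methylation ratio and direction. The authors' deposited values are log2 ratios: all 267 entries had a sign that matched the direction word and a size of at least 1. Not given in the sources used here are the aligner, region caller, thresholds, genome build, cytosine context and depth. Per the labels' protocols, sonicated DNA was ligated to methylated adaptors, bisulfite-treated, amplified by PCR and size-selected.

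Genes were taken as unannotated where the orthology definition was empty or dashes and no ontology column held an entry. Entries with the same comparison and ends were counted as 1 region. Levels were recovered as whole percents within a relative tolerance of 1e-09, with a fraction of 0.001 (not a percentage) standing for 0. All 224 regions had at least 1 such pair, 82 had exactly 1, and 43 of those were at unannotated genes. The numerator of the ratios is not stated. The hydrated library was read as the denominator from 2 stretches, neither at an unannotated gene, that were listed with identical ends in 2 comparisons. For these, 2 and 6 hydrated levels gave both ratios with the hydrated library as denominator, and 0 did with it as numerator.

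Shares have exact Clopper-Pearson 95% intervals and medians have order-statistic 95% intervals (Python 3.11.15, scipy 1.17.1, matplotlib 3.10.9). No test was made, because each state had 1 library. Members and lists were chosen with earlier results of these data known. Genes were named if among the 5 highest or lowest of a comparison, listed in 2 comparisons, with several regions or elements, with a shared region, or with a level recovered as 0. A few others were named for their recovered levels after their values were seen. Alternatives were counting entries, merging overlaps, a size of 1.5, leaving out shared regions or levels of 0, no orthology definition alone, and 1 value per gene.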

Additional observations from a re-analysis of the deposited data

Results flagged for a closer look

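At Pp1s489_26V6 the listed regions were lower in partial rehydration, at -1.06, and higher in full rehydration, at 1.04 and 1, in the authors' deposited table. At Pp1s508_6V6 they were lower in partial rehydration, at -1.26 and -1.11, and higher in full rehydration, at 1.04, in the authors' deposited table. Both genes drew attention because every listed region of 1 state stood on the opposite side of the hydrated library from every listed region of the other. The difference was not tested, since each state had 1 library, and the regions compared were different stretches of the same element. Both comparisons share the hydrated library.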

How the results depend on the processing

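Of 54 values recomputed under another choice, 52 stayed within the 95% interval of the value reported and 2 did not. With regions of at least 1.5 in size, the share higher was 33.3% (2 of 6) in moderate dehydration in place of 66.7%, and 0% (0 of 3) in partial rehydration in place of 5.26%; fewer regions enter both. In severe dehydration the share ran from 44.4% to 75.0%, on 4 to 10 regions or entries, so its interval limits little. In full rehydration the share ran from 59.1%, with every gene that lacks an orthology definition, to 71.2%, without levels of 0. Body entries were 19.8% of all entries, or 14.8% with overlapping entries merged. No paired analysis was possible because each state had 1 library, and no replicate could be left out. Depth is unknown, so no counting interval could be given for a single ratio.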

Other observations

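Regions of unannotated genes in full rehydration mostly began at lower positions than those of the other comparisons, as the table numbers them. Scaffold lengths were not used. Over all scaffolds, 3 of 68 regions of full rehydration began beyond 500000, and 2 of 64 at annotated genes only. At unannotated genes the counts were 6 of 15 in moderate dehydration, 2 of 6 in severe dehydration and 8 of 19 in partial rehydration. On scaffolds numbered 1 to 100, 0 of 21 regions of full rehydration began beyond 500000 (exact 95% interval up to 16.1%, and 14.3% as the limit of 3 counts in 21), against 10 of 16 regions of the other 3 comparisons (62.5%, 35.4 to 84.8). Regions of annotated genes only had 1 of 21 (4.76%) and 13 of 20 (65%). The same scaffold could hold both kinds. On scaffold 23, Pp1s23_41V6 had its regions of full rehydration from 317678 and Pp1s23_230V6 its region of partial rehydration from 1694552. On scaffold 115, Pp1s115_8V6 was listed from 39814 in full rehydration and Pp1s115_194V6 from 1091504 in partial rehydration. Whether the deposited list of full rehydration covers the scaffolds to the same length as the others was not tested.

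Scaffolds with more than 1 unannotated gene numbered 14 of 83. On scaffolds 3, 91, 100, 101, 128, 236 and 284 these genes were all listed for the same region, so only the remaining ones held separate regions. On scaffold 208, Pp1s208_16V6 in moderate dehydration and Pp1s208_62V6 in partial rehydration were both lower, and on scaffold 358, Pp1s358_36V6 and Pp1s358_21V6 were both lower in the same states. On scaffold 71, Pp1s71_39V6 was higher in moderate dehydration and Pp1s71_60V6 lower in partial rehydration. On scaffold 224, Pp1s224_2V6 was higher in full rehydration, with a body value of 3.39 in the authors' deposited table, and Pp1s224_28V6 lower in partial rehydration, at -1.10 downstream in the authors' deposited table.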
